A study of Drosophila melanogaster with 2 samples.

Results

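The genes brk, shn, Mad, Med, Dad and Snoo encode proteins of the nuclear response to Dpp, the fly BMP ligand, among them inhibitors of the pathway. They are here called its nuclear effectors. They were taken as a fixed list, chosen with earlier results of these data known, of 6 of the 13945 protein-coding genes on the chromosome arms. Binding of Brinker, the product of brk, was read at each gene body extended by 5 kb on each side. By that rule 37 of the 3380 nuclear peaks in the authors' reproducible list (IDR, irreproducible discovery rate) had their summit at these genes. The peaks come from chromatin immunoprecipitation and sequencing of whole Drosophila melanogaster, males and females pooled, collected as wandering larvae of the third instar. The animals were of the transgenic strain brk-GFP, in which an insertion targeting brk provides Brinker with GFP at its C-terminus. The fusion was precipitated with an antibody to GFP, while the antibody label of both samples reads brk. There was 1 group with 2 biological replicates, numbered 3 and 4, so values are compared between replicates and between these genes and the rest of the genome. The labels do not say whether the strain also makes untagged Brinker, a peak in whole larvae averages over all tissues, and control libraries were not analysed here.

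Activated Dpp receptors phosphorylate Mad, which joins Med and enters the nucleus. With the zinc finger protein Schnurri (shn) this Smad complex silences brk. Brinker in turn is a repressor that binds GC-rich sites in Dpp target genes, so that many of these genes are active where brk is off. Dad, itself a target of the pathway, is an inhibitory Smad that dampens it, and Snoo belongs to the Ski and Sno family of Smad-binding proteins that antagonise Dpp signalling.

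All 6 genes had an IDR peak, where 26.9% of protein-coding genes did. The counts were uneven: shn had 13 peaks, Snoo 11 and Dad 8, whereas Mad and Med had 2 each and brk 1. The median was 5 peaks over the 6 genes and 0 over all protein-coding genes. In the gene body alone, 4 of the 6 had a peak (shn, Mad, Dad and Snoo), where 8.19% of protein-coding genes did. Long genes offer more sequence, and the extended genes ranged from 13.2 kb for brk to 103 kb for Snoo. Genes were therefore also ranked by extended length and put in 10 classes of about equal size. Of the 1395 genes in the longest class, which holds shn, Dad and Snoo, 52.8% had a peak. This class is wide, with extended lengths of 24.6 to 1976 kb and a median of 38.6 kb, so Dad (26.4 kb) is near its lower end and shn (68.3 kb) and Snoo are above its median. At least 13 peaks, the count of shn, were found at 0.358% of that class, at least the 11 of Snoo at 1.08%, and at least the 8 of Dad at 2.87%. For the other 3 genes these shares were larger: at least as many peaks as brk were found at 23.3% of its class, as many as Mad at 20.4% and as many as Med at 14.7%. Per 10 kb of extended gene, Dad held 3.03 peaks, shn 1.90, Med 1.40, Snoo 1.07, Mad 0.848 and brk 0.758, against 0.252 over the arms. The arms include sequence outside extended genes, and 1 peak in the 13.2 kb of brk is enough for its 0.758.

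**Figure D1:**
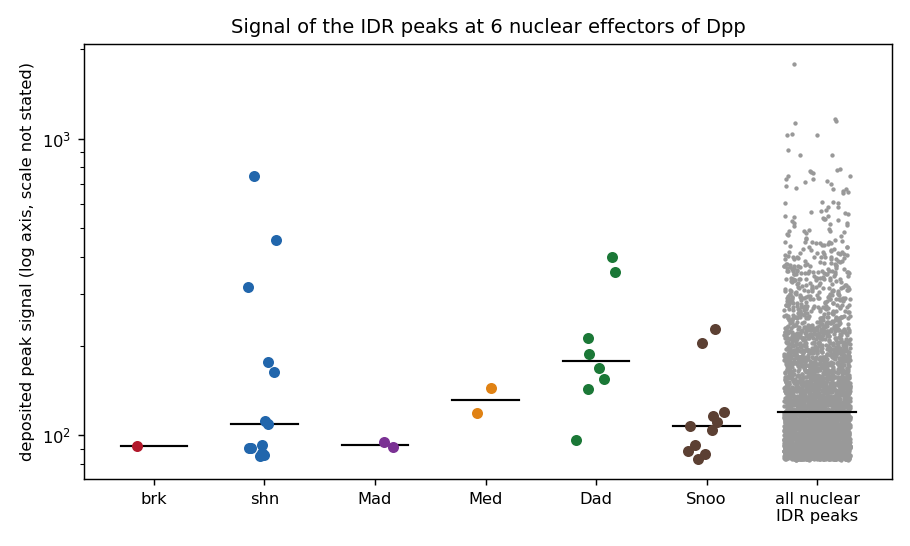
Deposited signal of each IDR peak at the 6 genes (points, log axis) beside all 3380 nuclear IDR peaks (grey), with the median of each set as a bar. The peaks of brk and Mad lie between 91.3 and 94.3, near the lower end of the list, while the strongest of shn and Dad reach 747 and 398.

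Signal is the value that the authors' peak caller gave to a peak. Its scale is not stated, and it is used here to describe and rank peaks. The 37 peaks had a median signal of 112, and the 3380 nuclear peaks one of 119 (range 82.6 to 1788). Of the 37 peaks 16 were at or above the nuclear median, 1 was among the strongest 25 and 2 were among the strongest 100, these at shn. The median was 177 at Dad, 131 at Med, 109 at shn, 107 at Snoo and 92.8 at Mad, and the peak of brk had 92.0. Peaks of a gene are numbered by their position on dm6, and the value of a replicate is that of its overlapping entry with the nearest summit. At the members the pooled signal was close to both replicates added together (median ratio 0.998), and the replicate values at these peaks were lower than the pooled ones.

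The Brinker site was searched on both strands, in the spellings GGCGCC or GGCGCT or GGCGTC or GGCGTT, as a match lying wholly within 100 bp of a summit. It was present in 8 of 37 member windows (21.6%), where 14.3% of all nuclear IDR windows held it. In windows centred 1 kb to either side it was present in 15 of 74 for the members (20.3%) and in 18.7% for all peaks. The members' share at summits was thus close to that in their own flanks. Some flanks fall on neighbouring member peaks, however. A flank of Dad peak 1 holds the site counted at Dad peak 3, so these flanks are not a background free of peaks. The matches were unevenly spread: 5 of the 8 Dad peaks held one, against 3 of the 29 peaks of the other 5 genes, 1 each at shn, Mad and Snoo. The windows printed with the genes below show where the sites lie, or that the window of a strong peak lacks them. They are read from the plus strand of RefSeq's Release 6 assembly (dm6), 100 bp to each side of the summit, in lower case with Brinker sites on either strand in capitals.

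Mad, the Smad that receptors phosphorylate, lies on the minus strand of 2L at 3146056 to 3159643 and had 2 weak peaks. Peak 2 (91.3), in an intron 641 bp upstream of the second Mad start site, had 69.8 in replicate 3 and 17.2 in replicate 4. That is a log2 ratio of 2.02, the largest between replicates at any of the 37 peaks. Peak 1 (94.3, with 58.4 in replicate 3 and 34.9 in replicate 4) lay beyond the 3' end of Mad and 11 bp from a start site of the neighbouring gene toc. Mad therefore had 1 peak inside the gene, and the replicates differed most on its height. The window of peak 2, at chr2L:3153294-3153494, held 1 site, 92 bp from the summit.
Mad peak 2: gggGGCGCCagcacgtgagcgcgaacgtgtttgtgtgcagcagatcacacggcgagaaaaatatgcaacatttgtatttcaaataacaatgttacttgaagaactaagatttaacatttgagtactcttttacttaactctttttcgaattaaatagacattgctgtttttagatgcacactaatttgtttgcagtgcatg

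Med, the partner shared by phosphorylated Smads, lies on 3R at 31611046 to 31615375 and had no peak in its body. Peak 2 (144, with 50.3 in replicate 3 and 80.9 in replicate 4) was 1120 bp upstream of the Med start site but 111 bp from a start site of CycG, a cyclin gene on the opposite strand that overlaps Med. Peak 1 (119, with 58.4 in replicate 3 and 47.2 in replicate 4) lay in an intron of CycG, 2470 bp upstream of Med. Neither window held a Brinker site. From the peak list alone these peaks cannot be given to Med rather than to CycG.

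shn encodes the cofactor that turns Smad binding at silencer elements into repression. It lies on 2R at 11159086 to 11217394 and has 5 annotated start sites. Its strongest peak, at 11173521 to 11173798, had a signal of 747, with 415 in replicate 3 and 334 in replicate 4, and ranked 16 of 3380. The summit lay 159 bp upstream of the second start site. Peak 2 (453, with 194 in replicate 3 and 244 in replicate 4) was in an intron, 1384 bp downstream of the third start site. Peak 4 (316, with 130 in replicate 3 and 175 in replicate 4) lay also in an intron, 5543 bp downstream of the same start site. In the list of replicate 3 the entries of these 3 peaks ranked 11, 112 and 368 of 29964 nuclear entries. In that of replicate 4 they ranked 25, 65 and 180 of 29966. Both lists include background. Peak 3, between peaks 2 and 4, had 177, with 123 in replicate 3 and 74.6 in replicate 4.

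All 13 shn peaks lay within the gene body and had a shn start site as the nearest one, and 3 of the 5 start sites had a summit within 500 bp. The weaker promoter peaks were 170 bp upstream of the fourth start site (90.3, with 49.0 in replicate 3 and 45.3 in replicate 4) and 244 bp upstream of the fifth (86.6, with 46.0 in replicate 3 and 40.9 in replicate 4). At the first start site no IDR summit was nearer than 14558 bp, and the nearest entry of the pooled list, 665 bp away, had a signal of 19.9. The IDR peaks of shn thus lay from just before its second start site onward, and 8 of the 13 were under the nuclear median. Peaks 4 and 5 overlap, as do peaks 6 and 7, so the 13 peaks are 11 separate sites. Peak 5 (92.3) had entries of its own, of 34.0 in replicate 3 and 25.4 in replicate 4. The site in the window of peak 13 (109) was 69 bp from its summit. At peak 1 a site began 99 bp from the summit, inside the peak, and was not counted because it runs past the window edge. At peak 8 the nearest site, also inside the peak, was 132 bp from the IDR summit but 32 bp from that of replicate 4.

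brk itself, on X at 7307939 to 7311132, had 1 peak of 92.0, ranked 2787 of 3380, with 55.0 in replicate 3 and 39.5 in replicate 4. The peak lay 6483 bp downstream of the start site, beyond the 3' end of brk. It is in an intron of CG1677, a long gene on the other strand that spans brk, and of lncRNA:CR44357, and beside the 3' end of Atg5. The labels do not say where the tagged insertion lies or whether it adds a copy of brk sequence, so its part in the values at brk was not tested. It was among the strongest entries of replicate 3, taken to the number of nuclear IDR peaks, and not among those of replicate 4. No entry of the pooled list, background entries included, had its summit nearer to the brk start site than 5590 bp or upstream within 20 kb, a distance chosen after the lists were seen. In both replicate lists every entry within 20 kb of the gene was likewise downstream, the nearest 5661 bp from the start site, in replicate 4. Genes with so few entries are common on X: 39.7% of its 2196 protein-coding genes had no more than the 3 pooled entries of brk within 20 kb of a start site, and the median was 5. The distance of 5590 bp is common as well. The nearest pooled entry was at least as far at 51.9% of these genes, and the median distance was 6173 bp.

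The silencer element, bound by Mad, Med and Schnurri and known as the route by which Dpp represses brk, was searched in a relaxed form over the extended genes on both strands. In this form any base was allowed after each of the first 2 Gs and throughout the spacer before the closing bases. The relaxed form had 3 matches at brk, 2 each at shn and Snoo, 1 at Med and 0 at Mad and Dad. Matches at other genes were not counted, so these counts do not show whether 3 matches at a gene are unusual. The counts are for the relaxed form only, and a match to it does not by itself show a silencer. The 3 matches at brk are therefore not shown to be 3 silencer elements. None of these 8 matches at the members lay under an IDR peak or any pooled entry. IDR peaks cover only 3.15% of the extended brk gene, 3.89% at Snoo, 5.81% at Med and 6.71% at shn. All 3 matches at brk were upstream of the start site, by 3102, 2170 and 276 bp, whereas the brk peak was downstream. In summit windows the element was in 0 of 37 for the members and in 0.0592% of all nuclear IDR windows. The brk matches are shown in full in the direction of the element, with no lower case because the whole run is the match. They lie at chrX:7304830-7304845 (minus strand), chrX:7305762-7305777 (minus strand) and chrX:7307656-7307671 (plus strand).
brk match 1: GCCGCCGCGCTGTCTG
brk match 2: GACGACGGACTGTCTG
brk match 3: GTCGTCAGTTTGTCTG

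**Figure D2:**
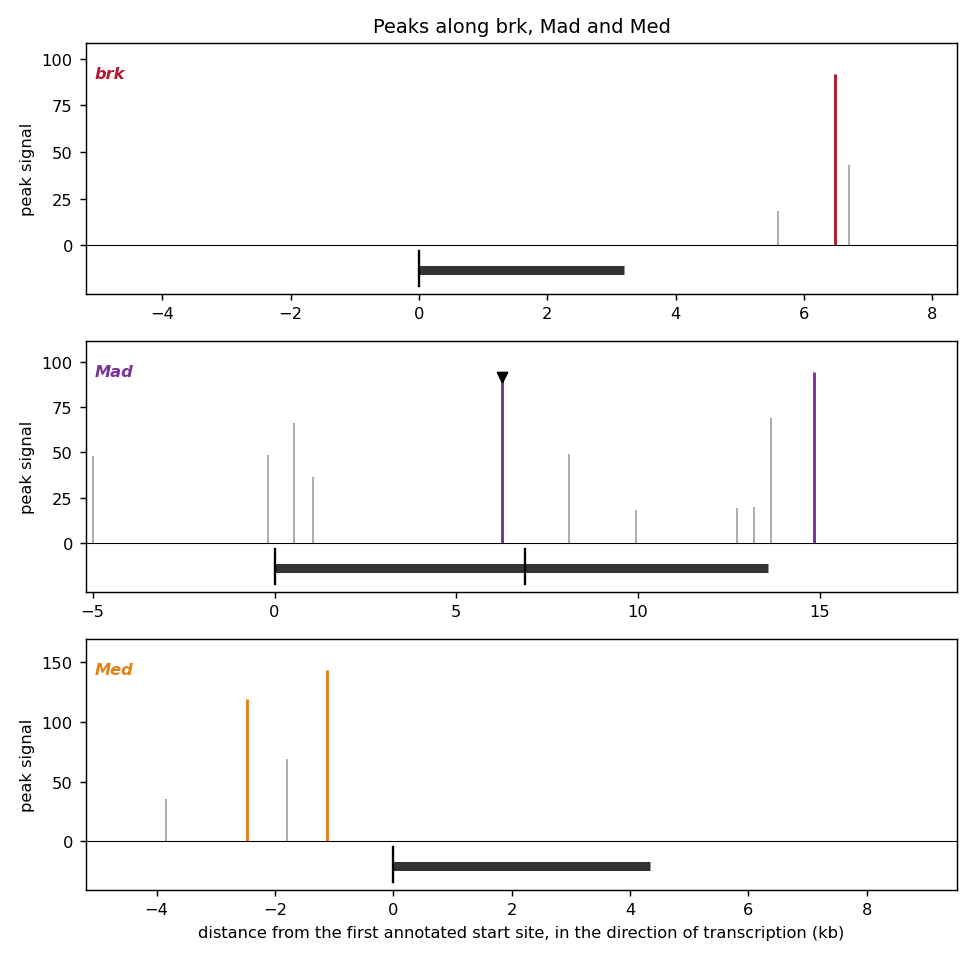
Signal of IDR peaks (coloured lines) and of weaker pooled entries (grey lines) along brk, Mad and Med, by distance from the first annotated start site in kb, with the gene body as a bar, start sites as ticks and a triangle at the Mad peak with a Brinker site. The brk peak of 92.0 lies downstream of the gene and both Med peaks lie upstream of Med.

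Dad, on 3R at 17054007 to 17070408, had the highest density of peaks of the 6 genes, and 7 of its 8 peaks were at or above the nuclear median. Peak 1 (155, with 80.7 in replicate 3 and 79.9 in replicate 4) had its summit 1098 bp upstream of the first start site. The overlapping peaks 2 and 3 (143 and 96.1) lay 370 and 168 bp upstream of it. In replicate 3 they had entries of 87.7 and 61.6, and in replicate 4 they share 1 entry of 66.8. The other 5 peaks were in introns. Peak 4 (353), 1529 bp downstream of the second start site, had 188 in replicate 3 and 186 in replicate 4. Peak 5 (212), 4328 bp downstream, had 102 in replicate 3 and 119 in replicate 4. The replicates were close at both. Peak 6 (187), 7083 bp downstream, had 114 in replicate 3 and 75.2 in replicate 4. Peak 7 (398), the strongest of the gene at rank 103, had 211 in replicate 3 and 184 in replicate 4. Peak 8 (168) overlaps peak 7 but had its own entries, of 76.2 in replicate 3 and 66.0 in replicate 4. With overlapping peaks merged the 8 peaks are 6 separate sites. The nearest start site to peaks 7 and 8 is that of the neighbouring gene Ns1, 7488 and 7289 bp away.

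At Dad peaks 4, 5 and 6 a Brinker site lay wholly within 10 bp of the summit, a distance chosen after the windows were seen. This was the case at 3 of 37 member summits and at 1.51% of all nuclear IDR summits. At peak 6 the IDR summit and both replicate summits fell inside one GGCGCC. At peak 4 the IDR summit fell inside a GGCGCC, the replicate 4 summit lay 4 bp from it, and the replicate 3 summit fell inside another site of the window. At peak 5 the IDR summit was 2 bp from a GGCGCC, but the summit was 57 bp from it in replicate 3 and 70 bp in replicate 4. Peak 8 had a GGCGCC 13 bp from its IDR summit, 17 bp from its summit in replicate 3 and 41 bp from that in replicate 4. GGCGCC by itself, also examined after the windows were seen, was in 6 of 37 member windows (16.2%), 4 of them at Dad, and in 2.63% of all nuclear IDR windows. The mean GC content of the windows was 43.8% at Dad and 39.8% over the members, against 35.6% over all nuclear IDR peaks, and its part in these counts was not tested.

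The windows of Dad are printed because they carry the sites near summits: peak 4 at chr3R:17056326-17056526, peak 5 at chr3R:17059125-17059325, peak 6 at chr3R:17061880-17062080 and peak 8 at chr3R:17065286-17065486. The window of peak 7, at chr3R:17065087-17065287, is printed beside them because the strongest peak of the gene held no site within 100 bp of its summit. The nearest site to that summit, a GGCGCT 144 bp away, lies in the window of peak 8.
Dad peak 4: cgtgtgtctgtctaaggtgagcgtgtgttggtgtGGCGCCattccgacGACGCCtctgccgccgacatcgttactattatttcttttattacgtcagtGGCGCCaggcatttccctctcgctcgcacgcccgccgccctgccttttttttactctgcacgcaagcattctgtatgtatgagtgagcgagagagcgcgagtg
Dad peak 5: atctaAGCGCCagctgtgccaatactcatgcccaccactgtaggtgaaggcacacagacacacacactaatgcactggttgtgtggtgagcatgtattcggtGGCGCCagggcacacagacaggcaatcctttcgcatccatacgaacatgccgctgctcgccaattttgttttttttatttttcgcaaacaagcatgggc
Dad peak 6: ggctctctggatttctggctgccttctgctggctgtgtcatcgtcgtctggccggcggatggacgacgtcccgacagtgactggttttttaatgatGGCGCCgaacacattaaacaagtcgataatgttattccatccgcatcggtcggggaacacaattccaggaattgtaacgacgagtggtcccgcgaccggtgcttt
Dad peak 8: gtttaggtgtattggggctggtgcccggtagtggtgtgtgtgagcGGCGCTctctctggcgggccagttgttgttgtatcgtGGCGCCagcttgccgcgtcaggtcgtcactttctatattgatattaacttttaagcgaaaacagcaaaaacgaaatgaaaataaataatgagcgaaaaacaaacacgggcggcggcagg
Dad peak 7: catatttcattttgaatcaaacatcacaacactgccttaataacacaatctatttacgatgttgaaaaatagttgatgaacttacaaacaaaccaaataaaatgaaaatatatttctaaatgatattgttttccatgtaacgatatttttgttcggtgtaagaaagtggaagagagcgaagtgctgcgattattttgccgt

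Snoo, on the minus strand of 2L at 7891187 to 7984196, is the longest of the 6 genes and had its 2 strongest peaks far from its 3 start sites. Of its 11 peaks 10 lay in introns of Snoo. The strongest, peak 4 at 7916432 to 7916585, had a signal of 228, with 96.1 in replicate 3 and 135 in replicate 4, and its summit was 60578 bp downstream of the nearest Snoo start site. Peak 5 (205, with 120 in replicate 3 and 84.7 in replicate 4) was 51461 bp downstream. For peaks 1 to 6 a start site of the neighbouring gene Spn28Db was nearer, at 25783 bp for peak 4 and 34900 bp for peak 5. The order of these peaks differed between the replicates. The other 9 peaks ranged from 83.0 to 120. The intronic peak nearest to a Snoo start site was peak 10 (104, with 41.5 in replicate 3 and 59.2 in replicate 4), 3213 bp downstream. Peak 11 (83.0, with 51.7 in replicate 3 and 26.4 in replicate 4) lay 189 bp from a start site of the neighbouring gene CG7231 and 890 bp from that of Snoo. No Snoo start site had an IDR summit within 500 bp. The windows of peaks 4 and 5 held no Brinker site, and that of peak 6 (107) held 1, at 92 bp. The window of peak 4, at chr2L:7916387-7916587, is shown as the strongest of Snoo.
Snoo peak 4: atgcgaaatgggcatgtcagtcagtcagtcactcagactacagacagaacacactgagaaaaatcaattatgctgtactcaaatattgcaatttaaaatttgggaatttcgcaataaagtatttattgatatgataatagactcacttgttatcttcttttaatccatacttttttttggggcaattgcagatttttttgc

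**Figure D3:**
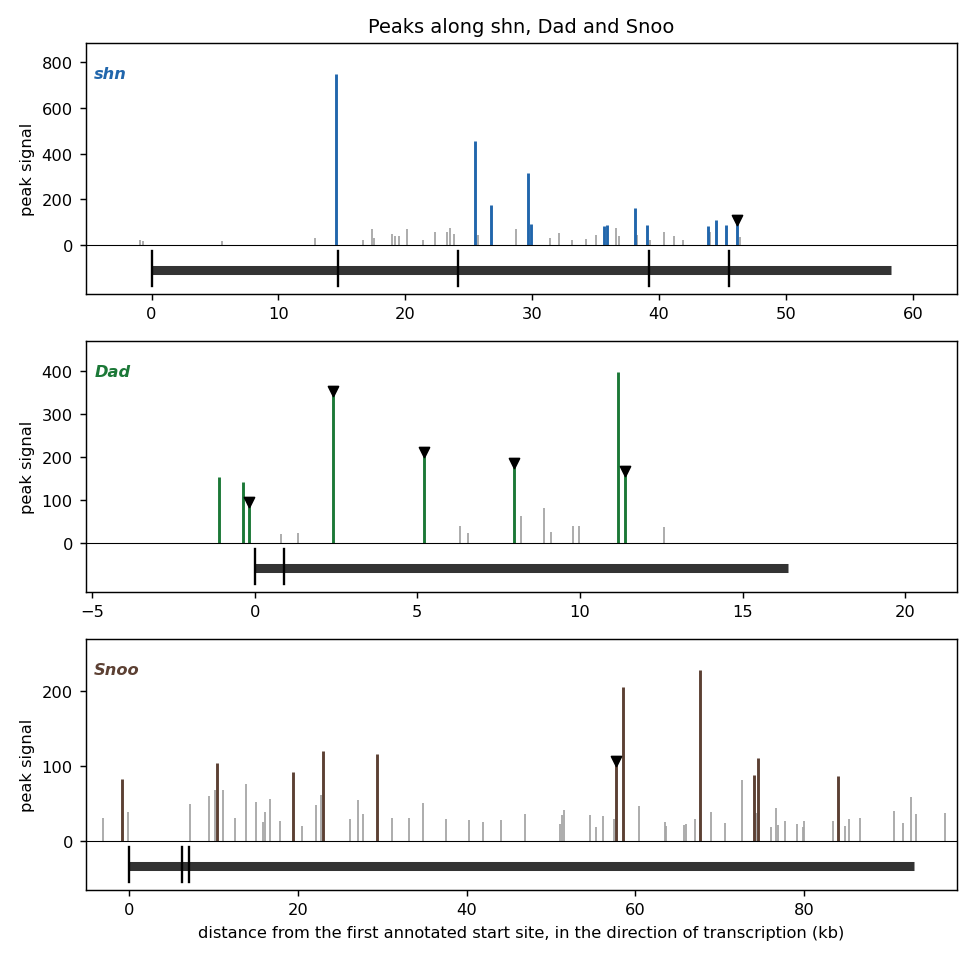
Signal of IDR peaks (coloured lines) and of weaker pooled entries (grey lines) along shn, Dad and Snoo, by distance from the first annotated start site in kb. The bar is the gene body, ticks on it are start sites, and triangles mark IDR peaks with a Brinker site within 100 bp of the summit, 1 of 13 at shn, 5 of 8 at Dad and 1 of 11 at Snoo.

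By position, 28 of the 37 summits were in introns (75.7%), 8 were in promoters, within 500 bp of a start site (21.6%), and 1 was between genes. Of all nuclear IDR summits 38.6% were in introns and 44.5% in promoters. Of the 8 promoter summits, 3 were at start sites of other genes, namely toc, CycG and CG7231. A summit within 500 bp of its own start site was found at 2 of the 6 genes, shn and Dad, where 10.5% of protein-coding genes had one. Of the 14 start sites of the 6 genes, 4 had such a summit. For 25 of the 37 peaks the nearest start site was that of the member.

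Among other motifs, GAGAG, bound by Trl (the GAGA factor), was present in 18 of 37 member windows (48.6%), with 6 of 8 at Dad, 6 of 13 at shn, 5 of 11 at Snoo and 1 of 2 at Med. It was present in 28.3% of all nuclear IDR windows and in 24.3% of the members' flanks. CGATA, bound by BEAF-32, was present in 10 of 37 member windows and in 27% of all. The Smad site GCCGNCGC was present in 2 of 37, at Dad peak 8 and shn peak 13, and in 1.6% of all. The E-box CACGTG was in 1 member window, that of Mad peak 2, and in 1.89% of all. The Dref site TATCGATA was in 0 member windows and in 3.08% of all. CAGGTAG, bound by zld, was in 0 and in 0.621%, and the Smad palindrome GTCTAGAC was in 0 and in 0.0592%.

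The replicates were compared at each member peak. Every one of the 37 peaks had an overlapping entry in both replicates, as did 3244 of the 3380 nuclear IDR peaks. IDR keeps peaks that recur in both replicates, and the replicate lists include background, so this is no independent support. Some entries were weak, such as that of Mad peak 2 in replicate 4, ranked 14200. For 35 of the 37 both replicates had a summit within 100 bp of the IDR summit, a share not counted over all peaks. Ratios between the replicate lists take their signals to be on the same scale, which the sources do not state. The log2 ratio of replicate 3 to replicate 4 had a median of 0.21 and an SD of 0.69 over the members, and a median of 0.04 and an SD of 0.65 over the 3244 nuclear IDR peaks with both entries. Replicate 3 had the higher value at 24 of 37 peaks, and at 1717 of the 3244 nuclear IDR peaks with both entries. More than a 2-fold difference was found at 5 of 37 peaks (13.5%), against 10.3% of all. Higher in replicate 3 were Mad peak 2 and shn peaks 6, 7 and 8. Peaks 6 and 7 of shn share an entry of 71.0 in replicate 3 and had 28.7 and 22.8 in replicate 4, and peak 8 had 95.7 in replicate 3 and 40.8 in replicate 4. Higher in replicate 4 was Snoo peak 1, with 24.4 in replicate 3 and 63.6 in replicate 4. At Dad the largest log2 ratio was 0.59, at peak 6. Differences between peaks that are smaller than these ratios are not separable from the spread between replicates.

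**Figure D4:**
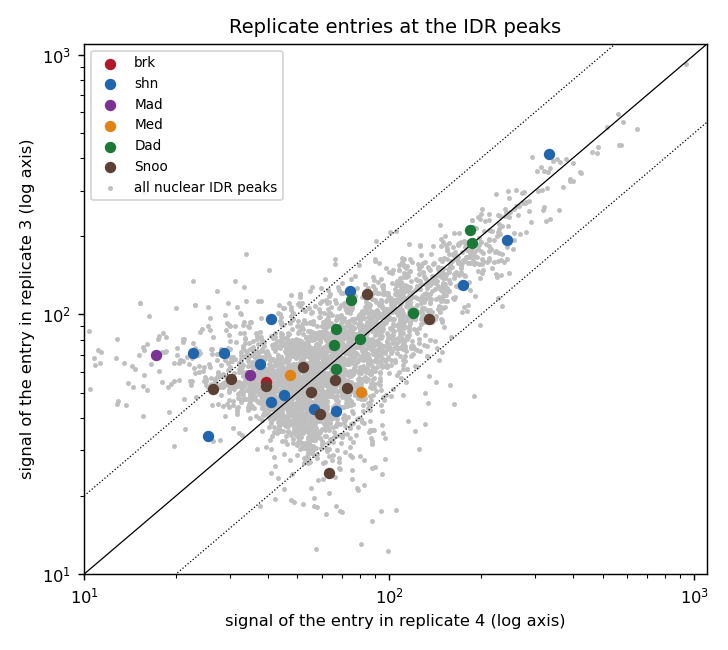
Signal of the overlapping entry in each replicate, both on log axes, for the member peaks (coloured) and all nuclear IDR peaks (grey), with the line of equality and dotted lines at 2-fold. Mad peak 2, shn peaks 6, 7 and 8 and Snoo peak 1 lie outside the dotted lines.

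Taken alone, the strongest entries of replicate 3, as many as the nuclear IDR peaks, gave a peak at all 6 genes, where 31.7% of protein-coding genes had one. Those of replicate 4 gave a peak at 4 of the 6, where 26.8% did, and brk and Mad had none. shn had 11 such entries in replicate 3 and 10 in replicate 4. Dad had 11 in replicate 3 and 7 in replicate 4, and Snoo had 10 in replicate 3 and 12 in replicate 4. The order of these 3 genes by count thus changed between replicates.

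Weaker entries of the pooled list, outside the IDR list, were numerous at the long genes. Snoo had 60 such entries, shn 32, Dad 10, Mad 9, and Med and brk 2 each. With the IDR peaks this makes 6.89 pooled entries per 10 kb at Snoo, 6.82 at Dad, 6.59 at shn, 4.66 at Mad, 2.79 at Med and 2.27 at brk, against 2.24 over the arms. With 20 kb on each side brk held the same 3 entries, 0.695 per 10 kb, against 1.89 over X. Summits within 100 bp in both replicates were found for 24 of the 60 weaker entries at Snoo, 13 of 32 at shn, 4 of 9 at Mad, 2 of 10 at Dad, and 1 of 2 each at Med and brk. Of all 26583 nuclear pooled entries outside the IDR list, 32.6% had such summits. The strongest entry just outside the list was at Dad (82.5, 8010 bp downstream of the second start site), next to the 83.0 of Snoo peak 11 just inside it. At Mad a weaker entry of 66.4, with 18.9 in replicate 3 and 33.6 in replicate 4, lay 523 bp downstream of the first start site. Another of 48.4 lay 189 bp upstream of that site and 118 bp from the start of gkt. The pooled list was deposited as peaks together with background, so a weak entry by itself does not show binding.

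The 6 nuclear effectors had 37 IDR peaks and a median of 5, while among 30 other genes of the pathway 18 had a peak, with 49 in all and a median of 1. Per 10 kb of extended gene, summed over each set, this was 1.49 peaks for the nuclear effectors and 0.644 for the other pathway genes. Some of these others matched the members: tkv, a Dpp receptor gene, and dlp, a glypican gene, had 8 peaks each, as many as Dad, on 62.4 kb and 49.0 kb, and magu had 5 on 21.2 kb. These 3 are named for their counts, after these were seen. By role the 18 genes were 4 of 7 ligands, 4 of 5 receptors, 6 of 9 extracellular modulators and 4 of 9 other regulators inside the cell. The strongest peak of each list was 133 at Actbeta, an activin ligand, 358 at wit, a receptor, 240 at cv, an extracellular BMP-binding protein, and 252 at gro, a corepressor. The strongest peaks of shn and Dad were above each of these.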

How the data were processed

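Peak lists deposited on dm6 were used: 1 for each replicate and 1 from the pooled alignments, each of peaks with background, and the reproducible list made from them by IDR. Roles, build and use of a control alignment are per the deposited sample notes. The sources used here name neither caller nor IDR threshold. Signal, −log10 q-value and summit offset are as deposited by the authors. Lists on dm3 were not used. Peak lists hold no read counts, so depth is unknown and no interval is given.

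The 6 chromosome arms were kept. Genes came from Ensembl release 115 (BDGP 6.54), without transposable elements, and sequence from RefSeq's Release 6 assembly. A gene was given each IDR summit in its body or within 5 kb. Replicate entries overlap a peak by at least 1 bp. Among several, that with the nearest summit was taken, a rule set after the lists were seen, because the strongest was often that of a neighbouring peak. Motif windows reach 100 bp from the summit. The sequence of the brk peak is not reported here. With 1 group no test between conditions exists, so counts stand beside the same count over all genes or peaks. The members, motifs and gene lists were chosen with earlier results of these data known. All members and the genes at their peaks are named, and of other pathway genes the one with the strongest peak in each list, with exceptions marked in the text. Counting, overlap and motif steps were tested on simulated data (Python 3.11.15, pandas 2.3.3, numpy 2.4.6, matplotlib 3.10.9).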

Additional observations from a re-analysis of the deposited data

How the results depend on the processing

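All 6 genes also had an IDR peak with 10 kb on each side, with interval overlap or midpoint in place of the summit, and among the 5000 or 10000 strongest pooled entries. With 2 kb, or by nearest start site, 5 had one. In the gene body alone, within 1 kb of a start site, or at or above the median signal, 4 had one. Of these altered settings, the share over all protein-coding genes was counted only for the gene body alone, where it was 8.19%. Wider windows and longer lists also take in more of all genes, so these counts do not show that the members stand out. The 37 peaks became 33 with overlapping peaks merged (chosen after seeing the data), 8 within 1 kb of a start site, 16 at or above the median signal and 79 among the 10000 strongest pooled entries. Leaving out a replicate gave 31 to 38 peaks at 4 to 6 genes. Peaks with a Brinker site numbered 4 within 50 bp, 13 within 200 bp and 21 with every spelling of GGCGNN, and 3 within 10 bp (chosen after seeing the data). With a replicate left out they numbered 6 of 31 (19.4%, against 13.6% of all peaks, without replicate 3) and 11 of 38 (28.9%, against 15.3%, without replicate 4). The share over all peaks moved with the window and spelling too, to 6.51%, 30.7%, 42.2% and 1.51%. The strongest peak had a replicate signal of 39.5 to 55.0 at brk, 334 to 415 at shn, 34.9 to 58.4 at Mad, 50.3 to 80.9 at Med, 184 to 211 at Dad and 96.1 to 135 at Snoo, lower than in the pool because pooled signal is near the sum of both. With 2 kb or the body alone brk has no peak, and with the body alone Med has none. Giving each peak its strongest overlapping replicate entry, in place of that with the nearest summit (chosen after seeing the data), left 4 of 37 member peaks (10.8%) and 7.09% of all over 2-fold between replicates, with a log2 ratio of 1.67 in place of 2.02 at Mad peak 2. It gave 4 repeated entries per replicate at the members, against 1 with the nearest summit. No paired analysis was possible because there is only 1 group. Depth is unknown, which limits any statement that a site is unbound.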

Other observations

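Over the extended Dad gene the 4 spellings of the Brinker site had 54 matches, 20.5 per 10 kb, and 11 of them lay inside IDR peaks, which cover 9.61% of that stretch. At shn 3 of 77 matches lay inside IDR peaks, which cover 6.71%, at Mad 2 of 31, with 3.53% covered, and at Snoo 5 of 126, with 3.89% covered. The 12 matches at brk and the 23 at Med lay outside every IDR peak and every pooled entry. IDR peaks cover only 3.15% of the stretch at brk and 5.81% at Med. In flank windows GGCGCC by itself was present in 3 of 74 for the members (4.05%) and in 3.18% for all nuclear IDR peaks. These counts were not tested.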
